A study of Danio rerio with 4 samples.

Results

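Simple repeats are tandem runs of a short unit, and low-complexity repeats are stretches dominated by 1 or 2 bases. They were taken here as every name in the deposited repeat table that starts with an opening bracket, such as (CA)n, or ends in -rich, such as A-rich. This gave 782 of 1821 repeat names, 776 of them bracketed and 6 ending in -rich. The members made up 42.9% of the names but 1.13% of all repeat counts.

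The RNA came from whole zebrafish larvae (*Danio rerio*) at 5 days post fertilization (120 hours), sorted by phenotype and pooled by 10. The 2 mutant libraries were homozygous for *uhrf1*-hi272, and the 2 sibling libraries came from phenotypically normal larvae that mixed +/+ and +/- genotypes. Total RNA was sequenced after ribosomal RNA removal, and the values are raw counts. Per the labels 2 clutches were used, and which pool came from which is not stated, so the p-values below measure only the spread between these pools.

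Microsatellites, the short-unit simple repeats, lie in introns, between genes and in untranslated regions, and gain or lose units easily when copied. A read from one can therefore come from a host transcript and need not mark a transcript of its own. Uhrf1 binds CpG sites methylated on one strand and recruits the methyltransferase Dnmt1 to them. Methylation in vertebrates sits mainly at CpG, so a tandem run can carry it there only when its unit, or the junction between units, holds a CpG.

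The units on which the results turn are printed 5′ to 3′ as 3 tandem copies of the deposited unit, in lower case with each CpG in capitals. The first pair led the counts and are each other's reverse complement, and the next 3 had the smallest p-values between groups.
Repeat (TGGA)n: tggatggatgga
Repeat (TCCA)n: tccatccatcca
Repeat (CCTCTT)n: cctcttcctcttcctctt
Repeat (CGAGCAG)n: CGagcagCGagcagCGagcag
Repeat (CGA)n: CGaCGaCGa

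Siblings 1 and 2 had 4981004 and 2996676 gene counts, and mutants 1 and 2 had 9100665 and 3299449. Levels below are counts per 1000000 gene counts (CPM), where 1 count is worth between 0.110 and 0.334. *uhrf1* stood at 19.1 and 49.7 in siblings 1 and 2 and at 33.3 and 25.5 in mutants 1 and 2, so the target gene cannot serve to check the labels, and "mutant" means a library labelled so. Markers of muscle, liver, pancreas, retina, lens, neurons, skin, blood and intestine all had counts in every library. Sibling 2 stood apart in its repeats: repeat names other than the members summed to 270913 in CPM there, against 137592 in sibling 1, 185066 in mutant 1 and 192719 in mutant 2. Where they rest on this library, the totals, the calls and the fold changes of leading names are given with and without it. Class sums are shown by library, in the text or the figures.

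Simple and low-complexity repeats as a whole did not separate mutants from siblings. Their summed level was 1474 and 3758 in siblings 1 and 2 and 1922 and 2262 in mutants 1 and 2. Both mutants lay between the siblings. The group means were 2616 ± 1615 for siblings and 2092 ± 241 for mutants (SD, n = 2 each), a ratio of 0.800 (two-sided exact permutation p = 1). With 2 libraries against 2, that test cannot give a p below 0.333. Without sibling 2 the ratio was 1.42, and without sibling 1 it was 0.557, so the direction turned with the sibling library kept.

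Set against all repeat counts in place of gene counts, the members' share was 1.06% (exact 95% binomial interval 1.04 to 1.08) and 1.37% (1.34 to 1.39) in siblings 1 and 2. In mutants 1 and 2 it was 1.03% (1.01 to 1.04) and 1.16% (1.13 to 1.19). These intervals cover counting error only. The groups overlapped again, with a ratio of 0.901 (two-sided exact permutation p = 0.667), which moved to 1.03 without sibling 2. Sibling 2 was high on this scale too. Its simple repeats stood at 2.55 times those of sibling 1 in CPM, and its other repeat names at 1.97 times.

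**Figure D1:**
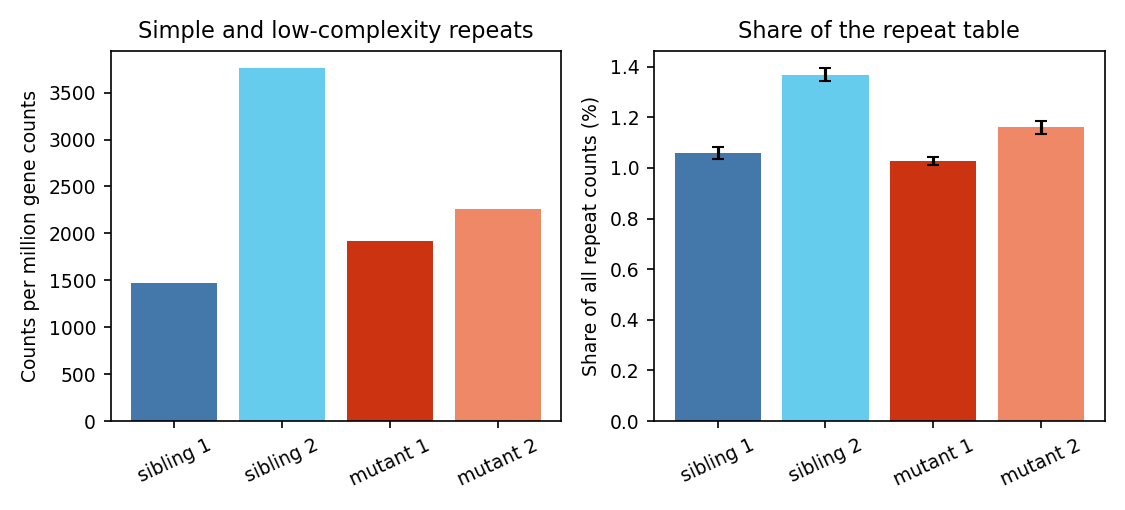
Summed level of the 782 simple and low-complexity repeat names in each library, in CPM (left) and as a percentage of all repeat counts (right, with exact 95% binomial intervals as bars). Sibling 2 is highest in both panels at 3758 CPM and 1.37%, and the mutants lie between the siblings on the left.

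Counts were concentrated in few names. Of the 782 names, 205 had no count in any library, 302 had between 1 and 9 over the 4 libraries, and 63 had at least 100. The 8 most abundant names held 46.2% of the members' counts, and the 2 leading ones, (TGGA)n and (TCCA)n, held 19.9%. Names with a count numbered 369, 423, 494 and 362 in siblings 1 and 2 and mutants 1 and 2, highest in the deepest library.

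By unit length, tetranucleotides held the largest share at 41.0% of the members' counts, followed by dinucleotides at 17.5%. Units of 5 bases held 11.0%, units of 3 bases 9.08%, units of 6 bases 7.56%, units of 1 base 4.25% and units of 7 to 10 bases 2.02%. The -rich names made up the other 7.58%. Tetranucleotides stood at 462 and 1751 in siblings 1 and 2 and at 780 and 973 in mutants 1 and 2. That is the widest gap between the siblings of any length class, 3.79-fold, against 1.11-fold for units of 6 bases and 1.29-fold for units of 1 base.

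In all but 1 length class the mutants and siblings overlapped in CPM, the -rich names included. The exception was units of 6 bases, at 229 and 253 in siblings 1 and 2 against 110 and 118 in mutants 1 and 2, a ratio of 0.473 (two-sided exact permutation p = 0.333, the smallest this design gives). A single name carried that gap. Without (CCTCTT)n, an alternative chosen after the values were seen, the class stood at 80.1 and 154 in the siblings and at 91.2 and 111 in the mutants, which overlap.

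**Figure D2:**
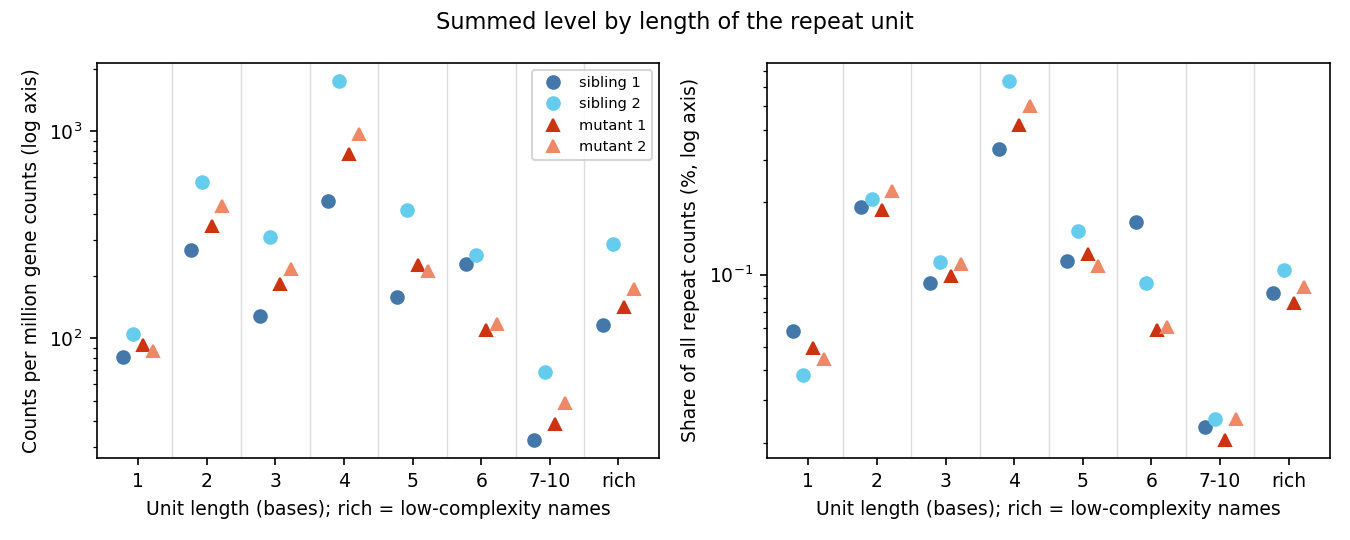
Summed level of members by length of the repeat unit in bases (7-10, units of 7 to 10 bases; rich, the names ending in -rich), in CPM (left) and as a percentage of all repeat counts (right), both on log axes with 1 point per library. Mutants and siblings separate on both scales for units of 6 bases, 110 and 118 against 229 and 253 CPM, and overlap for the other classes.

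By GC content of the unit, names of exactly 50% GC held 47.1% of the members' counts, those above 0% and under 50% held 22.9%, those of A and T only held 19.3%, and those over 50% held 3.09%. Units without G or C stood at 295 and 694 in siblings 1 and 2 and at 381 and 421 in mutants 1 and 2. Those of 50% GC stood at 684 and 1905 in the siblings and at 856 and 1100 in the mutants. In both classes, and in the one above 0% and under 50%, the mutants lay between the siblings.

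GC-rich units were the class in which both mutants lay above both siblings. Units over 50% GC stood at 49.0 and 62.7 in siblings 1 and 2 and at 70.8 and 81.5 in mutants 1 and 2, a ratio of 1.36 (two-sided exact permutation p = 0.333). The groups did not overlap as a share of repeat counts either, at 0.0352% and 0.0228% in the siblings against 0.0378% and 0.0418% in the mutants. Without (CGA)n, also an alternative chosen after the values were seen, it stood at 35.3 and 51.4 in the siblings and at 44.0 and 50.01 in the mutants, which overlap.

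Units whose tandem run holds a CpG were few and rare. They numbered 39 of the 776 bracketed names, 26 of them with any count, and held 2.61% of the members' counts. Their summed level was 42.6 and 57.1 in siblings 1 and 2 and 59.4 and 64.3 in mutants 1 and 2, a ratio of 1.24 (two-sided exact permutation p = 0.333). Without (CGA)n the class stood at 28.9 and 45.7 in the siblings and at 32.6 and 32.7 in the mutants. Units without a CpG stood at 1315 and 3414 in the siblings and at 1720 and 2024 in the mutants.

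**Figure D3:**
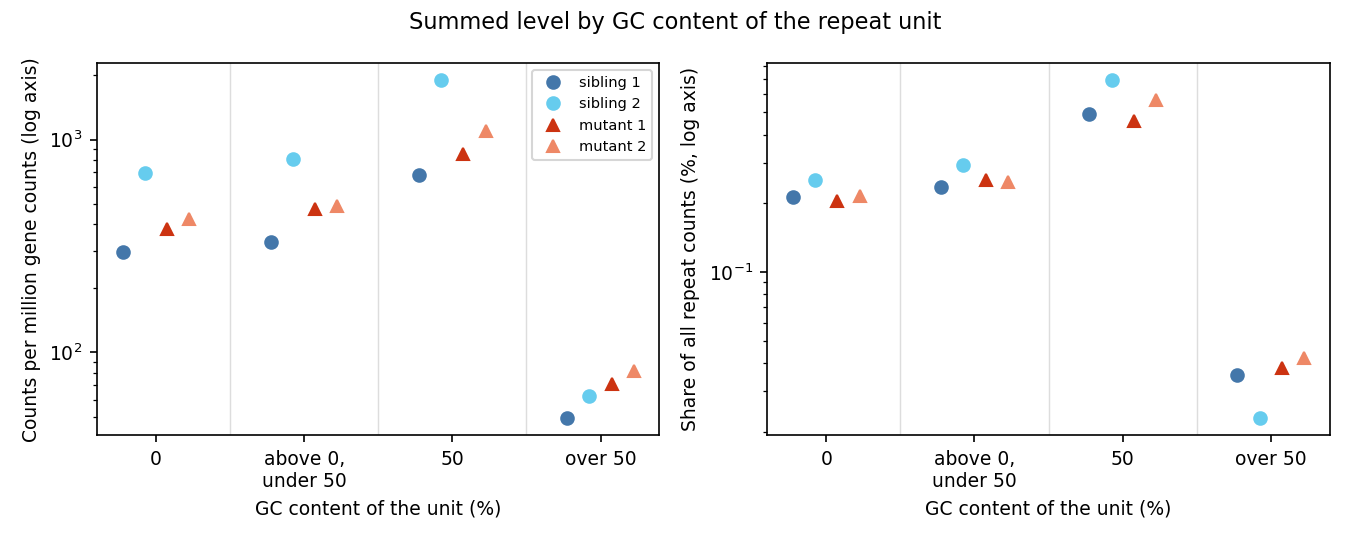
Summed level of bracketed members by GC content of the unit in percent, in CPM (left) and as a percentage of all repeat counts (right), both on log axes with 1 point per library. Both mutants lie above both siblings for units over 50% GC, 70.8 and 81.5 against 49.0 and 62.7 CPM, a class in which the groups overlap without (CGA)n.

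Single names were tested across the whole repeat table with edgeR's quasi-likelihood test, scaled by the gene table after TMM normalization, at a Benjamini-Hochberg adjusted p under 0.05. Of the 782 members, 111 had enough counts to be tested, and they held 89.5% of the members' counts. The test called 2 of them lower in mutants and 0 higher, against 0.194% of all 1029 repeat names called lower and 0.292% called higher. Those 2 members, (CCTCTT)n and (CGAGCAG)n, were the only names in the table called lower. With unadjusted p, 1 member was higher and 2 were lower at 0.05, and DESeq2 and limma-voom called 0 higher.

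(CCTCTT)n, a unit of pyrimidines only, fell in the mutants. It stood at 149 and 99.4 in siblings 1 and 2 and 19.1 and 6.67 in mutants 1 and 2, from 741, 298, 174 and 22 counts. Both mutants lay below both siblings. In edgeR the log2 fold change of mutant over sibling came to -3.31 with SE 0.55 (adjusted p = 2.58e-06). Other settings on all 4 libraries gave adjusted p from 3.45e-09 (limma-voom) to 0.0471 (edgeR with TMM over repeats as the scale). DESeq2 gave an adjusted p of 0.0155, and edgeR scaled by the repeat total 0.0258. (CCTCTT)n was among the 8 most abundant names. It made up 10.1% and 2.65% of simple repeat counts in siblings 1 and 2, and 0.995% and 0.295% in mutants 1 and 2. The call was lost without mutant 1 (log2 fold change -4.38, edgeR adjusted p = 0.99995) and without mutant 2 (-2.77, edgeR adjusted p = 0.99987).

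Of the 12 tissue markers examined, 6 ran in the same order of libraries as (CCTCTT)n, with both mutants below both siblings. Both markers of the exocrine pancreas were among them. The trypsin gene *prss1* stood at 5072 and 2714 in CPM in siblings 1 and 2 and at 452 and 66.4 in mutants 1 and 2. The carboxypeptidase gene *cpa1* stood at 532 and 187 in the siblings and at 28.0 and 4.85 in the mutants. The lens crystallin gene *cryaa* stood at 108, 54.4, 11.5 and 6.67 in the same order. The intestinal fatty acid binding protein gene *fabp2* stood at 294, 280, 74.2 and 60.6, its liver counterpart *fabp10a* at 580, 353, 221 and 205, and the skin keratin gene *krt4* at 11589, 10639, 9512 and 6282. The muscle genes *mylpfa* and *ckma*, the retina's *rho*, the neurons' *elavl3* and the globin genes *hbae1.1* and *hbbe1.1* did not follow that order. Their groups did not have both mutants below both siblings, as with *rho* at 375, 386, 308 and 664. The share of all genes in that order was not computed, so the 6 cannot be called more or fewer than among genes at large. The markers' part in the result was not tested. In pools of whole larvae, fewer cells of a type and less RNA per cell cannot be told apart.

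(CGAGCAG)n, a unit of 7 bases with 1 CpG, was rare and fell in the mutants. It had 23, 12, 1 and 3 counts in siblings 1 and 2 and mutants 1 and 2. After TMM scaling it stood at 5.18 and 3.77 in the siblings and at 0.110 and 0.861 in the mutants. Only the siblings' counts took it past the count filter, so the values below carry that selection. In edgeR it changed by -3.58 on the log2 scale with SE 0.91 (adjusted p = 0.0185). Summed counts gave a sibling level 13.6 times that of the mutants in CPM, with exact 95% bounds of 4.86 and 52.7 for counting error. The mean was under the 5 CPM used for naming, and it is named because only 2 members were called. The call was lost without any 1 of the 4 libraries, with edgeR adjusted p between 0.0786 and 0.99995. It was also lost with DESeq2 (adjusted p = 0.203), with the repeat total as the scale (edgeR adjusted p = 0.126) and with no count filter.

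(CGA)n had the only unadjusted p under 0.05 among members that were higher. It stood at 13.7 and 11.3 in siblings 1 and 2 and at 26.8 and 31.5 in mutants 1 and 2, so the groups did not overlap. Its edgeR log2 fold change of 1.11 with SE 0.55 did not pass (adjusted p = 0.998). Without sibling 1 it passed (1.39, edgeR adjusted p = 0.0128), and without sibling 2 it did not (0.88, edgeR adjusted p = 0.112). The repeat table's LSU-rRNA_Hsa row, large-subunit ribosomal RNA, also had both mutants above both siblings, at 36.3 and 22.7 against 49.8 and 120 in CPM. Its part in the level of (CGA)n was not tested.

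The other tested names with a CpG lay on different sides and did not pass. (CGTG)n stood at 5.82 and 8.01 in siblings 1 and 2 and at 10.2 and 9.09 in mutants 1 and 2 (edgeR log2 fold change 0.43 with SE 0.63, adjusted p = 0.998). (TATCG)n stood at 7.63 and 12.0 in the siblings and at 5.27 and 6.06 in the mutants (edgeR log2 fold change -0.85 with SE 0.64, adjusted p = 0.998). After TMM scaling, of the 4 tested names with a CpG, both mutants lay above both siblings for 2 and below both for 2, against 9.33% and 6.61% of all repeat names tested. Of these 4, (CGAGCAG)n was tested only because of its counts in the siblings, so its side is no evidence.

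The 2 most abundant names varied more between the 2 siblings than between the groups. (TGGA)n stood at 104 and 515 in siblings 1 and 2 and 190 and 282 in mutants 1 and 2. Its reverse complement (TCCA)n followed the same order, at 79.7, 456, 160 and 223. Sibling 2 was thus 4.97 and 5.72 times sibling 1 for these names, more than the 1.97 of repeat names outside the members. Their log2 fold changes were -0.39 (SE 0.49) and -0.48 (SE 0.50), and both had an edgeR adjusted p of 0.998. Without sibling 2 they were 0.97 and 1.05 (edgeR adjusted p = 0.0966 and 0.0820), and without sibling 1 they were -1.10 and -1.22 and passed (edgeR adjusted p = 0.00756 and 0.00727).

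The sibling gap in (TGGA)n and (TCCA)n also showed as a share of all repeat counts. (TGGA)n made up 0.0745% and 0.187% of repeat counts in siblings 1 and 2, and 0.102% and 0.145% in mutants 1 and 2. Without both names, an alternative chosen after the values were seen, the members' share of repeat counts was 0.928% and 1.01% in the siblings and 0.840% and 0.901% in the mutants. The groups did not overlap on that scale, with a ratio of 0.896. In CPM they did, at 1291 and 2788 against 1571 and 1756. That set still held (CCTCTT)n, at 0.107% and 0.0362% of repeat counts in the siblings and 0.0102% and 0.00342% in the mutants. The members' share without (CCTCTT)n as well was not computed. In sibling 1 the 0.107% of that name exceeded the distance between 0.928% in sibling 1 and 0.901% in mutant 2. The gap between the groups on that scale therefore rested on (CCTCTT)n. For units with as many G or C bases as A or T, the groups overlapped once (CCTCTT)n was also left out. There the shares were 0.253% and 0.304% in the siblings and 0.260% and 0.301% in the mutants.

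The dinucleotides with G or C were led by the CA/TG run, the commonest microsatellite of vertebrate genomes. (TG)n stood at 91.7 and 179 in siblings 1 and 2 and at 116 and 150 in mutants 1 and 2. (CA)n stood at 50.2 and 147 in the siblings and at 84.1 and 102 in the mutants. (AC)n, the same run read from the next base, stood at 58.8 and 116 in the siblings and at 67.2 and 78.8 in the mutants. (GT)n stood at 42.2 and 66.7 in the siblings and at 51.5 and 59.4 in the mutants. In each of these 4 names the mutants lay between the siblings. Without sibling 1, (CA)n and (AC)n passed as lower (both -0.63 on the log2 scale, edgeR adjusted p = 0.0250 and 0.0270), and without sibling 2 they were at 0.67 and 0.10. Of the 12 names of 2 bases 8 were tested, none was called with edgeR, DESeq2 or limma-voom, 0 had an unadjusted edgeR p under 0.05, and their log2 fold changes lay between -0.44 and -0.03. (CG)n had no count in any library, and (AG)n had 1 in all.

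Runs of a single base differed by orientation. (T)n stood at 74.7 and 86.1 in siblings 1 and 2 and at 82.2 and 75.5 in mutants 1 and 2. (A)n, its reverse complement, stood at 6.63 and 19.0 in the siblings and at 10.4 and 11.5 in the mutants. (T)n had the smallest sibling gap of the 8 most abundant names, 1.15-fold, with an edgeR log2 fold change of -0.10 with SE 0.50 (adjusted p = 0.998). (C)n had no count in any library.

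Orientation was uneven in other families too, in both directions. Families named in a single orientation only, that of (CCTCTT)n among them, were left out of this count. Of the others with at least 100 counts, 31 had an orientation with more T than its reverse complement. That orientation held over 50% of the counts in 20 and under 50% in 11. With rotations merged, and (TT)n counted with (T)n, the T orientation held 88.1% of the (A)n and (T)n counts, between 82.4% and 91.9% by library. The (GTTT)n orientation held 90.0% against (AAAC)n, (ATTTT)n held 84.3% against (AAAAT)n, and (CTTT)n held 96.8% against (AAAG)n. The T-richer orientation held less in (ATCT)n, at 37.2% against (AGAT)n, and in (AGTTC)n, at 25.4% against (AACTG)n. (ATT)n held 48.7% against (AAT)n. The 2 largest families were nearly even, at 54.7% for the (TGGA)n orientation against (TCCA)n and 52.2% for (TG)n with (GT)n against (CA)n with (AC)n. The strand setting of the counting is not given in the sources used here. These families were chosen after their values were seen.

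Of the 6 low-complexity names, A-rich led. It stood at 98.8 and 246 in siblings 1 and 2 and 116 and 139 in mutants 1 and 2 (edgeR log2 fold change -0.47 with SE 0.50, adjusted p = 0.998). Without sibling 1 it passed as lower (-0.92, edgeR adjusted p = 0.00727). Leaving out sibling 2 gave 0.15 (edgeR adjusted p = 0.541). GA-rich stood at 13.3 and 32.0 in the siblings and at 23.0 and 27.9 in the mutants, and T-rich at 3.41 and 8.01 against 3.19 and 7.27. CT-rich had 6 counts in all, and C-rich and G-rich had 0, which allows up to between 0.330 and 1.001 in CPM by library (3 counts).

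Across all tested members, fold changes had little relation to the length or the GC content of the unit. Spearman's rho over the 108 tested bracketed names was 0.05 with GC content and -0.15 with unit length, given as descriptions of names that share the same 4 libraries. The median log2 fold change was -0.30 over the 111 members, with 22 above 0, and -0.14 over the 918 other repeat names tested. By GC class the medians were -0.37 for units of A and T only, -0.30 above 0% and under 50%, -0.31 at 50% and 0.43 for the 7 tested units over 50%. Without sibling 2 the members' median was 0.34 and that of the other names 0.27.

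In most tested members the groups overlapped after TMM scaling. Of the 111 members, 9 (8.11%) had both mutants above both siblings and 16 (14.4%) had both below. The shares over all repeat names tested were 9.33% and 6.61%, so on that scale more members than that background lay below. That excess was not tested, and some of these names, such as (ATA)n and (TAT)n, spell the same run. It also depended on the scale, because the TMM factor was 0.892 for sibling 1 and 1.06 for sibling 2 and for mutant 2. In CPM without TMM several of the 16 overlapped, (TAT)n among them. The shares over all repeat names were not computed without TMM. Among those below were (CCTCTT)n and (CGAGCAG)n. Among those above were (TTC)n, at 2.01 and 2.67 in the siblings and 3.74 and 8.18 in the mutants, and (CTC)n, at 1.61 and 1.001 against 3.52 and 2.73. The latter came from 8 and 3 counts in siblings 1 and 2 and 32 and 9 in mutants 1 and 2. Neither name passed (edgeR adjusted p = 0.998 for both). Only the mutants' counts took these 2 names past the count filter, so their side is a description and no evidence of a rise. Sibling 2 was the highest of the 4 libraries for 87 of the 111. It lay above sibling 1 for 87.4% of the tested members and for 95.3% of the other names tested. The median log2 difference between siblings 2 and 1 was 0.96 for members and 0.74 for other names, on log2 of CPM plus 0.5 after TMM scaling. Between mutants 2 and 1 it was 0.09 and -0.01.

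**Figure D4:**
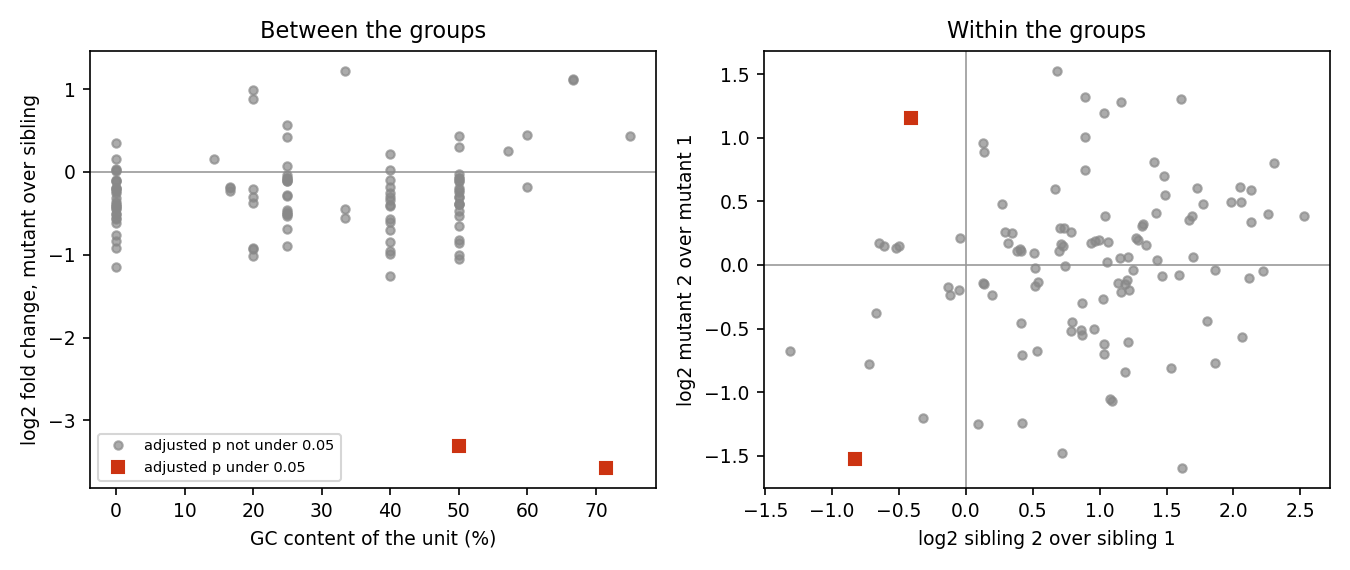
Left, log2 fold change of mutant over sibling against GC content of the unit in percent for the 108 tested bracketed names. Right, log2 difference between the 2 mutant libraries against that between the 2 sibling libraries for all 111 tested members, with red squares for the 2 names past the threshold in both panels. On the left the medians of the classes up to 50% GC lie between -0.37 and -0.30, the 7 names over 50% spread from -3.58 to 1.13, the 2 called names lie below -3, and the points on the right are shifted toward sibling 2 by a median of 0.96.

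The sibling library left out decided how many members were called. Without sibling 1, 22 of 137 tested members were lower and 1, (CGA)n, was higher, against 36.0% and 2.15% of all 1072 repeat names tested. Without sibling 2, 1 of 133 was lower, (CCTCTT)n, and 0 were higher in edgeR, against 0.0927% and 1.30% of 1079. There 13 members were higher at an unadjusted p of 0.05, and no other tool was run on 3 libraries. Without sibling 1 the share of members called lower was thus under the background share, but their fold changes were not smaller. The median log2 fold change there was -0.82 for the members and -0.47 for the other repeat names.

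Merging names that spell the same double-stranded run left the calls where they were, but it could hardly have changed them. (CGAGCAG)n is alone in its family, and (CCTCTT)n held 1235 of the 1288 counts of its family. The 776 bracketed names formed 273 families of rotations and reverse complements, of which 219 had counts. Of 80 families and -rich names tested, 2 were lower and 0 were higher in edgeR and DESeq2 called 0 higher, against 0.200% and 0.401% of the 998 rows tested. At an unadjusted p of 0.05, 1 was higher and 3 were lower. The 2 were the families of (CCTCTT)n, with a log2 fold change of -3.06 (SE 0.55, edgeR adjusted p = 2.45e-05), and of (CGAGCAG)n, at -3.58 (SE 0.92, edgeR adjusted p = 0.0201).

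The family of (TGGA)n and (TCCA)n held 20.5% of the members' counts in 8 names. It stood at 187 and 999 in siblings 1 and 2 and 363 and 522 in mutants 1 and 2, with an edgeR log2 fold change of -0.42 and SE 0.49 (adjusted p = 0.998). Without sibling 2 it was 1.02 and passed as higher (edgeR adjusted p = 0.0403), and without sibling 1 it passed as lower. The CA/TG family held 15.9% of the counts, at 243 and 509 in the siblings and 319 and 391 in the mutants (edgeR log2 fold change -0.12 with SE 0.49, adjusted p = 0.998). It too passed as lower without sibling 1 (-0.49, edgeR adjusted p = 0.0182).

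Satellites, which are also tandem repeats but of long units, also stood higher in sibling 2 than in sibling 1. The 14 satellite names summed to 2544 and 5530 in siblings 1 and 2 and to 3295 and 3409 in mutants 1 and 2, a sibling gap of 2.17-fold. As a share of repeat counts they stood at 1.83% and 2.01% in the siblings and at 1.76% and 1.75% in the mutants, with a ratio of 0.914 (two-sided exact permutation p = 0.333).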

How the data were processed

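RNA from 4 pools of 10 whole larvae was sequenced after ribosomal RNA removal. The authors deposited whole-number counts per gene and per repeat name, not normalized. Columns headed WT were taken as the siblings. The submitters' processing notes name Bowtie2 2.1.0, HTSeq, DESeq2 and the build GRCz10, without their roles. For the repeat annotation, the strand setting and reads with several matches, nothing is given in the sources used here.

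All 1821 repeat names were fitted together in edgeR 4.0.16 (R 4.3.3) after its filterByExpr step, with gene-table totals times TMM factors as library sizes. The filter weighs depth, so tested members had as few as 31 and 34 counts, while untested ones had up to 69 and 53. It asks for enough counts in 2 libraries, so a rare name can pass through the group in which it is high. Levels are counts per 1000000 gene counts, without TMM. Fold changes are mutant over sibling. Sums were compared by two-sided exact permutation tests, and class sums without leading names were added after seeing the data. DESeq2 1.42.0 and limma 3.58.1 served as alternatives, beside other scalings, filters, a replicate block and left-out libraries. The steps were tested on simulated data. The 8 most abundant names, names of 1 and 2 bases, names ending in -rich, and called names with at least 5 CPM were named, others after their values were seen. A result that the naming rule also covers is not reported here. Members and lists were chosen with earlier results of these data known. A count of 0 allows up to 3 counts, and 0 columns of sample values were left unused.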

Additional observations from a re-analysis of the deposited data

How the results depend on the processing

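The total of simple repeats kept no direction. Leaving out 1 library moved its mutant over sibling ratio from 0.557 to 1.42 in CPM and from 0.800 to 1.03 as a share of repeat counts. The members' median log2 fold change moved from -0.82 to 0.34. The names called lower ranged from 0 to 22 and those higher from 0 to 1, and families called lower from 0 to 17 and higher from 0 to 1. The ratios, the median and the 22 names and 17 families took their extremes with a sibling left out, and 0 were called lower without mutant 1 or mutant 2. The cause was not tested.

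Only 1 name, (CCTCTT)n, stayed called lower with gene totals, the repeat total or TMM over repeats as the scale, with DESeq2, with no filter, or with at least 50 counts in 2 libraries. 1 family stayed lower with the repeat total, DESeq2 or at least 50 counts. Scaling by the repeat total moved the median over all repeats tested from -0.15 to -0.00 on the log2 scale. Replicate numbers in the labels are tied to no clutch or day. Same-numbered libraries deviated together with a correlation of 0.22 over repeats in 2 pairs. The replicate block called 2 names and 2 families lower, with a members' median of -0.17.

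Small fold changes changed sign, none past the threshold unless said. With the repeat total they were 0.079 for (TG)n, 0.11 for (CA)n, 0.085 for (GT)n, 0.012 for (TA)n, 0.12 for (TC)n and 0.040 for the (AC)n family. With TMM over repeats they were 0.068 for (TG)n, 0.10 for (CA)n, 0.074 for (GT)n, 0.0039 for (TA)n and 0.12 for (TC)n. With limma-voom (CA)n was 0.034 and (TC)n 0.13, with the replicate block 0.028 and 0.094, and with gene totals (GT)n was 0.028. Without sibling 2 and with the repeat total, chosen after seeing the data, 1 name was higher and 1 lower, and the members' median was 0.068. There (TGGA)n was 0.72, (TCCA)n 0.80 and called higher (edgeR adjusted p = 0.0465), (TG)n 0.068, (CA)n 0.42, T-rich 0.040, (TA)n 0.34, (A)n 0.26 and (TC)n 0.65.

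Leaving out 1 library gave log2 fold changes from -0.75 to 0.52 for (A)n, -0.63 to 0.10 for (AC)n, -1.26 to 0.11 for (AT)n, -0.63 to 0.67 for (CA)n, -0.47 to 0.092 for (CT)n, -0.23 to 0.18 for (GT)n, -0.73 to 0.59 for (TA)n and -0.71 to 0.90 for (TC)n. They ran from -1.22 to 1.05 for (TCCA)n, -0.40 to 0.32 for (TG)n, -1.10 to 0.97 for (TGGA)n, -0.92 to 0.15 for A-rich, -0.30 to 0.72 for GA-rich and -0.81 to 0.29 for T-rich. For the (ATCC)n family of (TGGA)n they ran from -1.15 to 1.02, and for the (AC)n family from -0.49 to 0.33.

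Of 176 values of named members and families under other settings, 144 kept their direction and side of the threshold, 8 lost the call and 24 changed sign. Of 88 with 1 library left out, the numbers were 48, 12 and 20, and 8 gained a call. Depth limits the 671 members that were not tested.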

Other observations

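Counts of a few names came mostly from a single library. Of 186 names with at least 20 counts, 7 had at least 60% of their summed level in 1 library, and 5 of these 7 had it in sibling 2. (TTG)n had 26 counts in mutant 1, against 1, 1 and 3 in siblings 1 and 2 and mutant 2, which put 66.4% of its level there. (CTAGT)n had 14 counts in mutant 2 against 1, 3 and 6 in siblings 1 and 2 and mutant 1, or 69.5% of its level. These names were picked for this pattern, so the values are a description.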
